A study of Mus musculus with 6 samples.

Results

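Adrenergic, adenosine and prostanoid receptors are cell-surface receptors through which microglia sense noradrenaline, extracellular adenosine and prostaglandins. The receptors described here are Adrb1 (the beta-1 adrenergic receptor), Adora2a and Adora2b (adenosine receptors), Ptger1, Ptger2 and Ptger4 (receptors for prostaglandin E2) and Ptgir (the prostacyclin receptor). All 7 were found by gene name, once each, among the 25032 genes with a read in the deposited tables. They were chosen by their read counts and levels in these same libraries, TDP43-NLS against GFP, so their values and differences are a description, with no test.

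Gene expression was measured by sequencing poly(A)-selected RNA of BV2 cells, a mouse microglial line grown in culture. There were 3 libraries of BV2 cells overexpressing TDP43-NLS, a form of the RNA-binding protein TDP-43 that the design text writes as NLSmut, and 3 libraries of BV2 cells overexpressing GFP, the control protein. Both groups were cells of the same line kept in the same serum-containing medium, and no agonist of these receptors is named in the labels. The labels do not give the promoter of the constructs, the species of TDP-43 or whether libraries of a group came from separate cultures. The p-values therefore cover only the spread seen among these libraries, and that spread may be technical.

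Most of these receptors couple to the stimulatory G protein Gs, which activates adenylyl cyclase and raises cyclic AMP. Cyclic AMP acts through protein kinase A and the transcription factor CREB, and in microglia and macrophages it is known to restrain inflammatory output and to alter the shape and movement of processes. Ptger1 is the exception, since it acts mainly through calcium. Inhibitory (Gi) receptors of the same families lower cyclic AMP, and phosphodiesterases degrade it.

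The libraries held 15062131 to 18005592 counted reads. All 14 microglia and macrophage markers listed had a read, with summed levels of 1336 to 1363 FPKM (fragments per length of gene and depth of library) in TDP43-NLS libraries and 1452 to 1481 in GFP libraries, and 8 of them fell and 5 rose. Here and below, "rose" and "fell" are used of genes with an adjusted p under 0.05 in edgeR's quasi-likelihood test across all 13199 genes tested, in TDP43-NLS libraries relative to GFP libraries. In total 29.3% of the tested genes rose and 28.2% fell. Of the markers that define microglia in the brain, P2ry12 and Fcrls were low and fell, with 4 to 5 and 4 to 6 reads per TDP43-NLS library and 15 to 27 and 11 to 24 reads per GFP library, while Tmem119 and Cx3cr1 rose, with 58 to 69 and 201 to 234 reads per TDP43-NLS library and 31 to 40 and 110 to 152 reads per GFP library. Neuron, astrocyte, oligodendrocyte and fibroblast lists summed to under 1 FPKM in every library. The endothelial list summed to 0.442 to 0.587 FPKM in TDP43-NLS libraries and 0.110 to 0.179 in GFP libraries through Pecam1 and Kdr, while Cldn5 had 1 read in all, Tie1 had none and Cdh5 had 4 to 8 reads per library. The part of these differences in the receptor values was not tested. Tardbp, the mouse gene for TDP-43, had 376 ± 9.61 CPM (counts scaled to library size) in TDP43-NLS libraries and 451 ± 23.9 CPM in GFP libraries (SD, n = 3 each). It fell by 0.26 on the log2 scale (edgeR adjusted p = 0.000291) in libraries labelled as overexpressing TDP43-NLS. The construct has no row of its own, so both groups go by the names on the labels. GFP replicate 2 stood apart from the other GFP libraries, since its counts gave 6.67 and 6.68 in a chi-square divided by its degrees of freedom against them, where those 2 gave 1.18 against each other.

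The promoters of the 4 receptors with enough reads for a fit are shown first, as the sequence around their annotated RefSeq starts. The starts used in these cells were not measured. RefSeq's table on GRCm38.p6 gave windows from 250 bases before to 50 bases after the start for 5 of the 7 receptors, and none for Adora2a and Ptger1. The capitals mark TGACG, the core of the cyclic AMP response element TGACGTCA, and a loose form of the NF-kB site (GGG, any 5 bases, then CC), each on either strand. The windows lie at chr19:56721867-56722166 on the plus strand for Adrb1, chr11:62248734-62249033 on the plus strand for Adora2b, chr15:5244138-5244437 on the minus strand for Ptger4 and chr7:16906240-16906539 on the plus strand for Ptgir.
Adrb1: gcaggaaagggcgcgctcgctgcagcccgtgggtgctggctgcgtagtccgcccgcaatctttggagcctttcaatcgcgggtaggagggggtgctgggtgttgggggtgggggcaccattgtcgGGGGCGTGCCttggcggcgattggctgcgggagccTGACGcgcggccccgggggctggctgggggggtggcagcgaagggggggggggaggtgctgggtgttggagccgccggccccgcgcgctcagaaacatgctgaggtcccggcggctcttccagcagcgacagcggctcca
Adora2b: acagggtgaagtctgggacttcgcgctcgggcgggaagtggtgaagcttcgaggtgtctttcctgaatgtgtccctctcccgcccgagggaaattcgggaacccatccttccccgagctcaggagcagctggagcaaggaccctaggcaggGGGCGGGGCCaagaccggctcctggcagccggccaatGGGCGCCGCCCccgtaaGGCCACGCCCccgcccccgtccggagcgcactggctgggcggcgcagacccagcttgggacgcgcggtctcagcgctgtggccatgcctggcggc
Ptger4: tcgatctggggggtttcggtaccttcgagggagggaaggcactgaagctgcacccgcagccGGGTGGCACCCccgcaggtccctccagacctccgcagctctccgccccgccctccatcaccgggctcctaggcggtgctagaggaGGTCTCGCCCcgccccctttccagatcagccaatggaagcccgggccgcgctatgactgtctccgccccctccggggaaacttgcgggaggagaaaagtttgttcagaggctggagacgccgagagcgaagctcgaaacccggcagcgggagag
Ptgir: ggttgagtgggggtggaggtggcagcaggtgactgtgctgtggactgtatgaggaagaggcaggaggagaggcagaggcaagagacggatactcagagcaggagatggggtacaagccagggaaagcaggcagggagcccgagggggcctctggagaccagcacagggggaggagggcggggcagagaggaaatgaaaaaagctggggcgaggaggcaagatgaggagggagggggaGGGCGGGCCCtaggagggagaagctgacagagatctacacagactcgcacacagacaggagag

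None of the 5 windows held TGACGTCA, which 1.79% of all 32851 windows held. The core TGACG was found once, 90 bases before the start of Adrb1, and 20.8% of all windows held it. Every full element also holds the core. The loose NF-kB form matched 1 time in Adrb1, 4 times in Adora2b, 3 times in Ptger4 and 2 times in Ptgir, some of them overlapping on opposite strands, and 50.8% of all windows held it. The windows of Adrb1, Adora2b, Ptger4 and Ptgir were rich in G and C, at 72.3%, 70.0%, 67.0% and 62.0%, against a median of 52.7% over all windows. The window of Ptger2 was different, with 37.7% G and C and no match to any of these motifs. A match is a description of the letters and not a bound site.

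Adrb1 (ENSMUSG00000035283, GRCm39 chromosome 19, 56710631 to 56721545, plus strand), a Gs-coupled receptor for noradrenaline and adrenaline, was not read at all in cells given TDP43-NLS. It had 0, 0 and 0 reads in TDP43-NLS replicates 1 to 3 and 39, 52 and 39 reads in GFP replicates 1 to 3. As levels this was 0 FPKM in every TDP43-NLS library and 0.751, 0.923 and 0.664 FPKM in the GFP libraries. The groups did not overlap. With the limit of 3 reads that a count of 0 allows over the whole TDP43-NLS group, which corresponds to 0.0175 FPKM, Adrb1 was at least 43.3-fold lower there. This bound is -5.44 on the log2 scale, -5.30 without GFP replicate 2, and -4.93 to -4.80 with 1 TDP43-NLS library left out, where the same 3 reads fall on fewer libraries. Of the 13199 tested genes, 5, Adrb1 included, had no read in any TDP43-NLS library, and 6 had none in any GFP library. Such genes had enough reads for the test through the other group only. In a bulk sample, fewer cells that make a transcript and less of it per cell cannot be told apart.

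**Figure D1:**
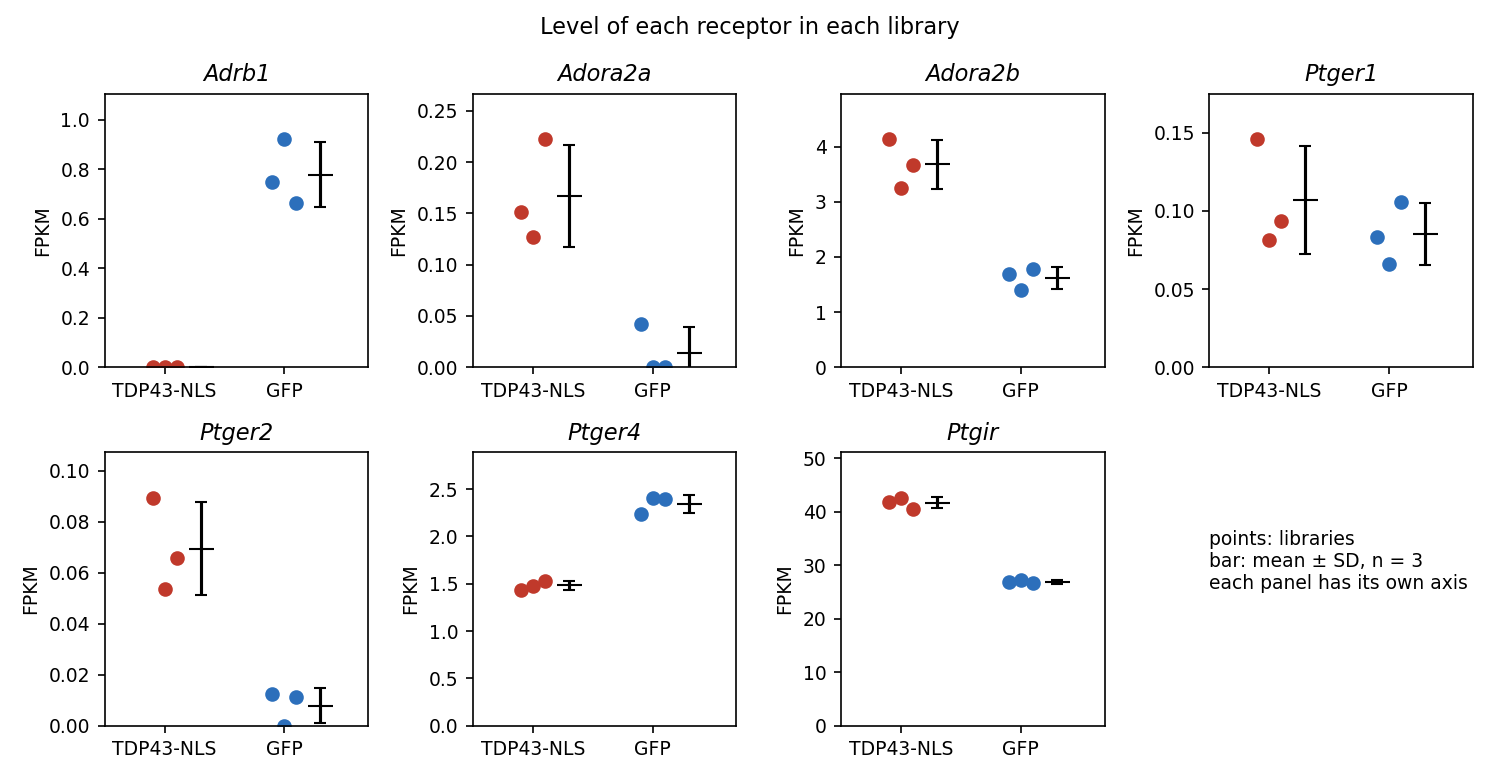
FPKM of each of the 7 receptors in the 3 TDP43-NLS libraries (red, left) and the 3 GFP libraries (blue, right), with mean ± SD beside the points and a separate axis from 0 in each panel. Adrb1 is at 0 in all TDP43-NLS libraries, Adora2b and Ptgir are higher there, Ptger4 is lower, and only the Ptger1 groups overlap.

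Adora2b (ENSMUSG00000018500, chromosome 11, 62139810 to 62157279, plus strand), the low-affinity Gs-coupled adenosine receptor, was higher in cells given TDP43-NLS. It had 115, 108 and 119 reads in TDP43-NLS libraries and 48, 43 and 57 reads in GFP libraries. Its levels were 4.14, 3.25 and 3.66 FPKM in TDP43-NLS libraries and 1.69, 1.40 and 1.78 FPKM in GFP libraries. Every TDP43-NLS library lay above every GFP library. The fitted log2 fold change was 1.21 (SE 0.15), and 1.11 without GFP replicate 2.

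Adora2a (ENSMUSG00000020178, chromosome 10, 75152711 to 75170618, plus strand), the high-affinity Gs-coupled adenosine receptor, was near the limit of detection. It had 7, 7 and 12 reads in TDP43-NLS libraries and 2, 0 and 0 reads in GFP libraries, too few for the fit. The ratio of summed reads was 13.0, with a 95% exact binomial interval of 3.25 to 113 that covers counting error only. All GFP reads came from replicate 1, and the groups did not overlap. Of the other adenosine receptors, the Gi-coupled Adora3 had 8, 7 and 6 reads in TDP43-NLS libraries and 1, 6 and 2 in GFP libraries, and Adora1 had none. The Adora3 groups overlapped through GFP replicate 2.

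Ptgir (ENSMUSG00000043017, chromosome 7, 16640415 to 16644830, plus strand), the Gs-coupled receptor for prostacyclin, was by far the most abundant of the 7 receptors. It had 2102, 2560 and 2383 reads in TDP43-NLS libraries and 1374, 1517 and 1541 reads in GFP libraries. Its levels were 41.9, 42.6 and 40.6 FPKM in TDP43-NLS libraries and 26.8, 27.3 and 26.6 FPKM in GFP libraries. The replicates of a group lay close together and the groups did not overlap. The fitted log2 fold change was 0.67 (SE 0.04), which is 1.59-fold higher in TDP43-NLS libraries, and 0.68 without GFP replicate 2.

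Ptger4 (ENSMUSG00000039942, chromosome 15, 5236142 to 5273668, minus strand), a Gs-coupled receptor for prostaglandin E2, was lower in cells given TDP43-NLS. It had 144, 177 and 179 reads in TDP43-NLS libraries and 228, 267 and 276 reads in GFP libraries. Its levels were 1.44, 1.48 and 1.53 FPKM in TDP43-NLS libraries and 2.23, 2.41 and 2.39 FPKM in GFP libraries. No TDP43-NLS library reached the lowest GFP library. The fitted log2 fold change was -0.62 (SE 0.08), and -0.61 without GFP replicate 2. The deposited positions place 11676 bases of Ptger4 within Ttc33, a gene on the other strand, and no source used here says if reads were assigned by strand. Ttc33 had 442, 584 and 607 reads in TDP43-NLS libraries and 496, 474 and 504 in GFP libraries, with a log2 fold change of 0.14 (edgeR, adjusted p = 0.113).

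Ptger2 (ENSMUSG00000037759, chromosome 14, 45225652 to 45241277, plus strand), the other Gs-coupled receptor for prostaglandin E2, was barely read. It had 7, 5 and 6 reads in TDP43-NLS libraries and 1, 0 and 1 reads in GFP libraries. The ratio of summed reads was 9.0, with an exact binomial interval of 2.15 to 80. The groups did not overlap. It lies within Gm17173, a long noncoding RNA on the other strand, which had 1, 3 and 4 reads in TDP43-NLS libraries and 0, 1 and 0 reads in GFP libraries, and without strand the reads of the pair cannot be told apart.

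Ptger1 (ENSMUSG00000019464, chromosome 8, 84393307 to 84399382, plus strand), which signals mainly through calcium, showed no separation of the groups. It had 12, 8 and 9 reads in TDP43-NLS libraries and 7, 6 and 10 reads in GFP libraries. The ratio of summed reads was 1.26, with an exact binomial interval of 0.704 to 2.28. It lies within a gene on the other strand that has many more reads, and without strand the reads of the pair cannot be told apart. With so few reads, and with strand not known to have been used in the counting, the level of Ptger1 is uncertain.

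Of the 7 receptors, 4 passed the filter on low counts and 3 (Adora2a, Ptger1 and Ptger2) did not, and Adrb1 passed through its GFP libraries only. Those 4 had an adjusted p under 0.05 in edgeR's quasi-likelihood test, as did 57.5% of all 13199 tested genes. Of the 4, 2 were higher and 2 lower in TDP43-NLS libraries, against 29.3% and 28.2% of all tested genes. Nothing is read from these counts, because the contrast chose the receptors. In 6 of the 7 the groups did not overlap, 4 with the TDP43-NLS libraries above and 2 with them below. This held for 63.2% of the tested genes, 32% above and 31.2% below, and for 39.1% of the 25032 genes with a read.

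The order of the receptors by level can be given because FPKM values are per length, and it covers the 14 receptors of the 3 families whose levels are reported here. Ptgir ranked 1 in both groups. Adora2b ranked 2 and Ptger4 ranked 3 in TDP43-NLS libraries, while Ptger4 ranked 2 and Adora2b ranked 3 in GFP libraries, with no overlap between them in either group. Adra1a, an alpha-1 adrenergic receptor coupled to Gq, ranked 4 in both groups. Adrb1 ranked 5 in GFP libraries. Down to these ranks neighbours did not overlap. Below them, receptors next to each other in rank overlapped in both groups. Some that were farther apart did not: in TDP43-NLS libraries Adora2a lay above Ptger2, at 0.127 to 0.223 FPKM against 0.0535 to 0.0895 FPKM, and in GFP libraries Ptger1 lay above Adora2a, at 0.0659 to 0.105 FPKM against at most 0.0425 FPKM. These levels rest on the gene lengths the authors used. For Ptger4 and Ptger1 the deposited annotation gives a domain of another protein, HSP90 for Ptger4 and a protein kinase domain for Ptger1. Their lengths, levels and ranks among receptors are less certain for that reason.

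**Figure D2:**
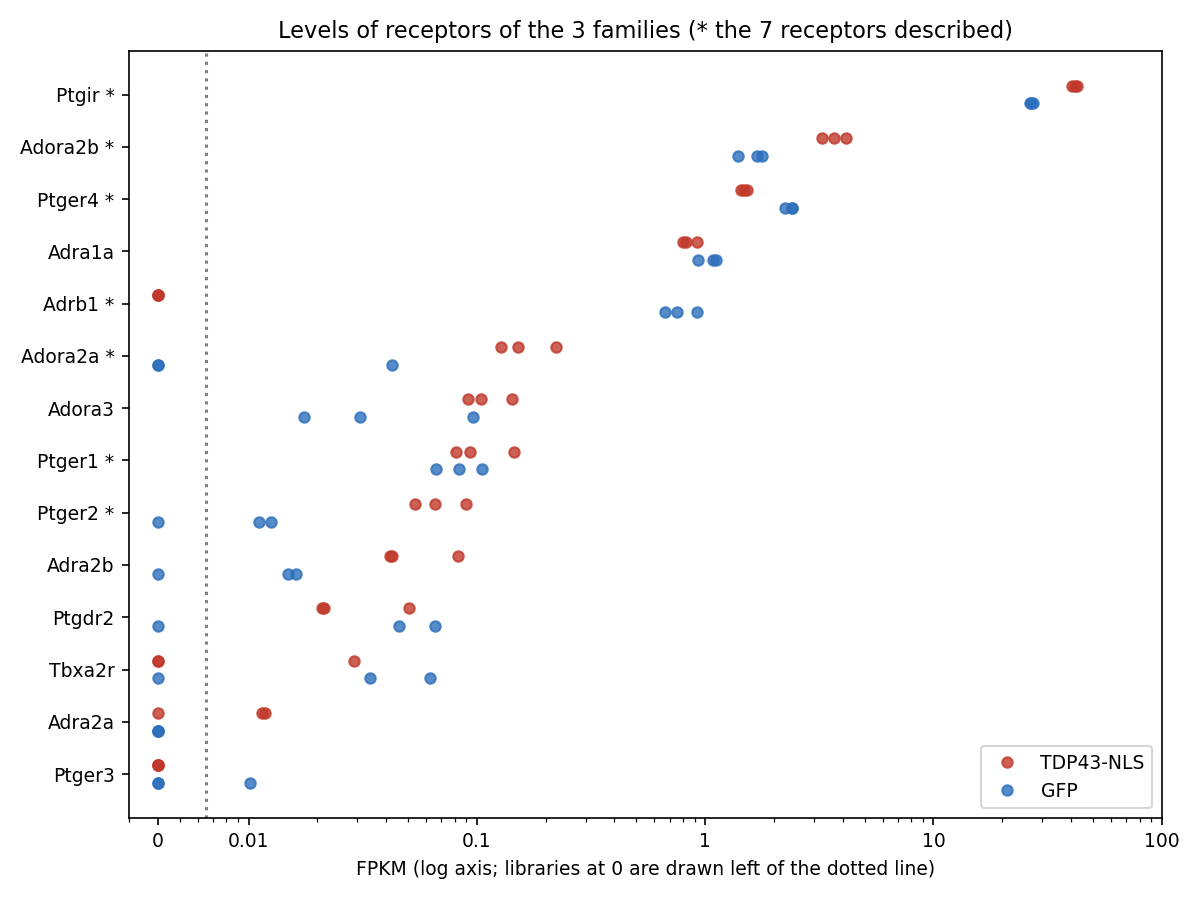
FPKM on a log axis of 14 receptors of the 3 families, one point per library, TDP43-NLS in red above GFP in blue, with libraries at 0 drawn left of the dotted line and the 7 receptors marked by asterisks. Ptgir lies at 26.6 FPKM or more in every library, 4 further receptors reach 0.664 FPKM in every library of at least 1 group, and the rest stay at or below 0.223 FPKM.

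Together these 14 receptors summed to 48.9, 48.7 and 47.2 FPKM in TDP43-NLS libraries and 32.8, 33.4 and 32.6 FPKM in GFP libraries. Ptgir made 86.4% ± 1.09 of that sum in TDP43-NLS libraries and 81.7% ± 0.0578 in GFP libraries (SD, n = 3 each). Without Ptgir the sum was 6.57 ± 0.514 FPKM in TDP43-NLS libraries and 6.03 ± 0.0591 FPKM in GFP libraries, so most of the difference in the sum was Ptgir. Ptger4 made 3.07% ± 0.150 in TDP43-NLS libraries and 7.12% ± 0.280 in GFP libraries. Gi-coupled receptors reached 0.207 ± 0.0596 FPKM in TDP43-NLS libraries and 0.0990 ± 0.0619 FPKM in GFP libraries. None of the Gi-coupled receptors had enough reads for the fit, so both values lie near the limit of detection. The most read of them, Adora3, had 21 reads over the TDP43-NLS libraries and 9 over the GFP libraries. Adenosine receptors made 8.21% ± 0.971 of the sum in TDP43-NLS libraries and 5.12% ± 0.570 in GFP libraries, nearly all of it Adora2b.

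Of the further receptors of the 3 families, Adra1a had 105, 129 and 141 reads in TDP43-NLS libraries and 150, 157 and 141 in GFP libraries, with a log2 fold change of -0.26 (edgeR, adjusted p = 0.0559). It was called only when GFP replicate 3 was left out (adjusted p = 0.0261), among the alternatives run. Adra2b, a Gi-coupled alpha-2 receptor, had 5, 3 and 3 reads in TDP43-NLS libraries and 1, 1 and 0 in GFP libraries. Ptgdr2, Tbxa2r, Ptger3 and Adra2a, receptors for prostaglandin D2, thromboxane, prostaglandin E2 and catecholamines, had 9, 4, 1 and 2 reads over all libraries. Adrb3, Adra1b, Adra1d, Adra2c, Adora1, Ptgdr and Ptgfr had no read in any library.

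Enzymes and transporters that supply or remove the ligands were examined next, as lists named for their roles. The counts of this and the later lists stand beside 29.3% of all 13199 tested genes that rose and 28.2% that fell. Of 11 tested genes of prostanoid synthesis, transport and breakdown, 4 rose and 5 fell, with a median log2 fold change of 0.01 against 0.003 over all tested genes. Ptgs2, the inducible cyclooxygenase, had 793, 1004 and 869 reads in TDP43-NLS libraries and 111, 118 and 135 in GFP libraries, and rose by a log2 fold change of 2.87 (SE 0.08, edgeR adjusted p = 5.61e-12). Ptges, the inducible prostaglandin E synthase, rose by 1.44 (SE 0.08). Ptgis, the synthase of the Ptgir ligand prostacyclin, had 14, 15 and 18 reads in TDP43-NLS libraries and 6, 3 and 5 in GFP libraries and rose by 1.72 (SE 0.34, edgeR adjusted p = 0.000807). Tbxas1, the thromboxane synthase, fell by 2.06 and Cbr1, a carbonyl reductase that converts prostaglandin E2, fell by 0.68. Ptgs1, the constitutive cyclooxygenase, had 59.8 ± 0.211 CPM in TDP43-NLS libraries and 59.3 ± 1.21 CPM in GFP libraries, with a log2 fold change of 0.01 (edgeR, adjusted p = 0.843). Tbxas1 overlaps Hipk2, a gene with many more reads on the other strand, and its value is uncertain for that reason.

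Of 8 tested genes of adenosine supply and clearance, 2 rose and 1 fell (median log2 fold change -0.01). Slc28a2, a transporter that takes up adenosine and other purine nucleosides with sodium, had 664, 837 and 775 reads in TDP43-NLS libraries and 38, 39 and 46 in GFP libraries. It rose by a log2 fold change of 4.20 (SE 0.09, edgeR, adjusted p = 5.58e-13). Ada, adenosine deaminase, rose by 0.71 and Slc29a3, an intracellular nucleoside transporter, fell by 0.72. Entpd1, the ectonucleotidase that hydrolyses ATP, had 360, 384 and 367 reads in TDP43-NLS libraries and 365, 379 and 403 in GFP libraries (edgeR, adjusted p = 0.621). Nt5e, which makes adenosine from AMP at the cell surface, had 1, 3 and 4 reads in TDP43-NLS libraries and 1, 3 and 0 in GFP libraries. For catecholamines, 2 genes were tested, of which 1 rose and 1 fell, and the one that rose, by 0.43, was Maoa, a monoamine oxidase.

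**Figure D3:**
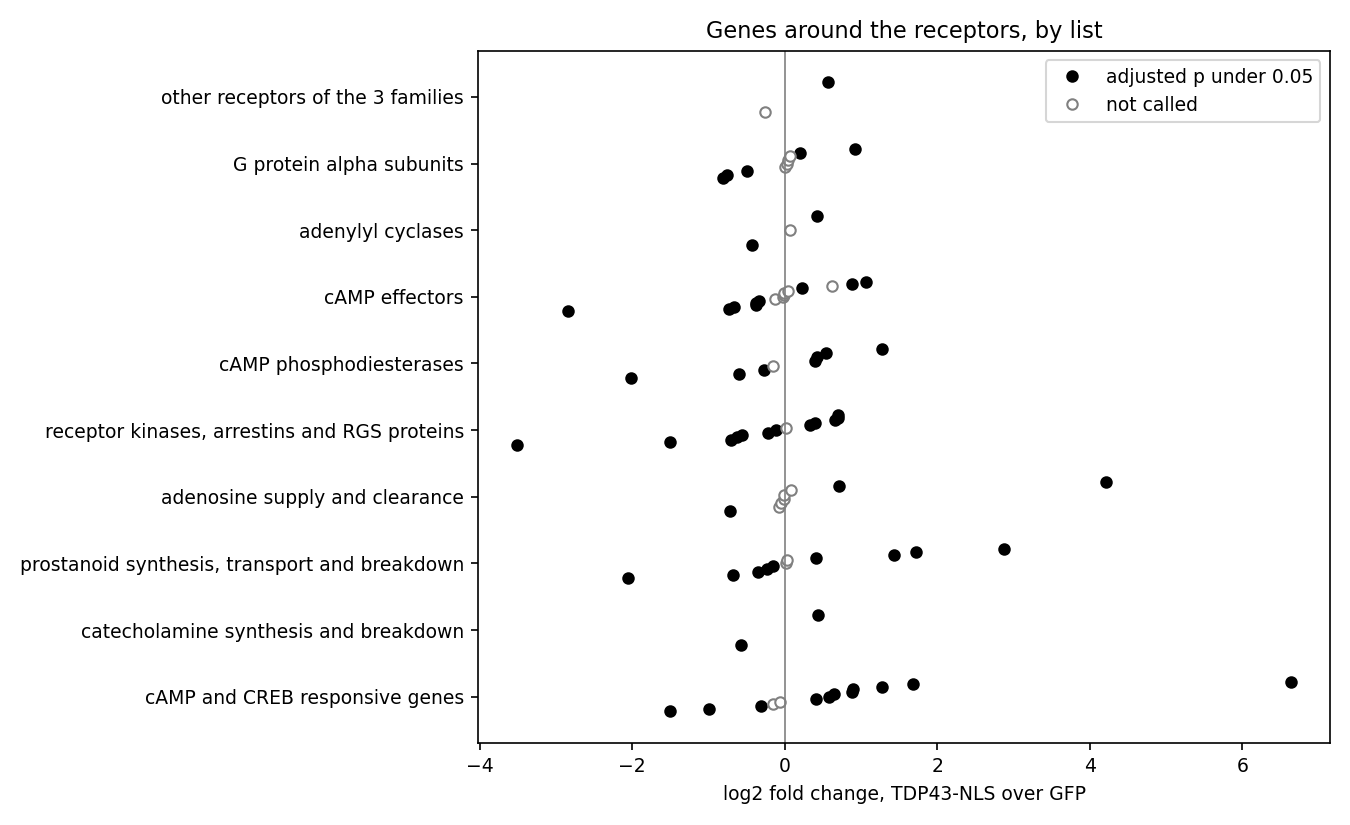
Log2 fold change, TDP43-NLS over GFP, of each tested gene in the lists around the receptors, with filled points for an adjusted p under 0.05 in edgeR's test and open points for genes not called. Called genes lie on both sides of 0 in 9 of the lists, and the farthest points are Slc28a2 and Ptgs2 on the higher side, Rgs18 and Prkar1b on the lower side, and Il6 at the right edge, whose fitted value rests on 2 GFP reads.

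Components that carry the signal to cyclic AMP moved both ways. Of 9 tested G protein alpha subunits 2 rose and 3 fell (median log2 fold change 0.03). Gnas, the Gs subunit itself, had 282, 347 and 239 reads in TDP43-NLS libraries and 396, 646 and 488 in GFP libraries, and fell by 0.81 (SE 0.15, edgeR, adjusted p = 0.000403). Its locus makes several overlapping transcripts and overlaps another annotated gene, so its value depends on how shared reads were counted. Gnai2, an inhibitory subunit, fell by 0.49 and Gnai3, another, rose by 0.20, while Gna12, which acts on the cytoskeleton, fell by 0.75. Of 3 tested adenylyl cyclases, Adcy7, the main one in these cells by FPKM, rose by 0.42 (SE 0.05, edgeR adjusted p = 4.15e-06). Adcy3 fell by 0.42 (adjusted p = 0.0315), a call that was lost without TDP43-NLS replicate 1 (0.0947) or 3 (0.0843) and without GFP replicate 1 (0.0618) or 2 (0.0787), all in edgeR. Gna12 and Adcy3 also overlap expressed genes on the other strand (Amz1 and Cenpo), and without strand their values are uncertain too.

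Of 15 tested cyclic AMP effectors 3 rose and 6 fell (median log2 fold change -0.03). Regulatory subunits of protein kinase A differed from each other. Prkar1b had 20, 26 and 19 reads in TDP43-NLS libraries and 129, 171 and 170 in GFP libraries and fell by 2.85 (SE 0.16), and Prkar2a fell by 0.73. Prkar2b had 418, 495 and 587 reads in TDP43-NLS libraries and 210, 273 and 235 in GFP libraries and rose by 1.06 (SE 0.10). Crtc1, a coactivator of CREB, fell by 0.67. Creb1 itself had a log2 fold change of -0.01 (edgeR, adjusted p = 0.828).

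Of 8 tested phosphodiesterases, which end the cyclic AMP signal, 4 rose and 3 fell (median log2 fold change 0.12). Pde4b, which cyclic AMP itself is known to induce, had 307, 396 and 335 reads in TDP43-NLS libraries and 145, 134 and 149 in GFP libraries and rose by 1.28 (SE 0.09). Pde8a rose by 0.54 and Pde1b by 0.40, and Pde8b fell by 2.02. Of 13 tested receptor kinases, arrestins and RGS proteins, which desensitise receptors or switch off G proteins, 5 rose and 7 fell (median log2 fold change -0.11). Rgs2 had 654, 775 and 837 reads in TDP43-NLS libraries and 2061, 2154 and 2220 in GFP libraries and fell by 1.51 (SE 0.05). Rgs18 fell by 3.51, Arrb1, a beta-arrestin, fell by 0.56 and Rgs14 rose by 0.70. Of 13 tested genes known to respond to cyclic AMP and CREB, 8 rose and 3 fell, with a median log2 fold change of 0.58 against 0.003 over all tested genes. Dusp1, a phosphatase of MAP kinases that lies within Ergic1 on the other strand, rose by 1.69. Ergic1 had 18667 reads over all libraries and Dusp1 had 1153, so without strand the Dusp1 value is uncertain. Il6, a cytokine, had 236 reads in TDP43-NLS libraries and 2 in GFP libraries. The Il6 ratio was 118, with an exact binomial interval of 32.3 to 980. Rgs2 and Pde4b are also in this list. Several of these genes, Il6 and Dusp1 among them, are also known to respond to inflammatory signals.

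Genes near the receptors on the chromosome were described as well. Their counts stand beside the shares over all 13199 tested genes, of which 29.3% rose and 28.2% fell. Within 1 Mb of Adrb1, 9 other genes were tested, of which 4 fell and 1 rose, with a median log2 fold change of -0.24 against -0.03 over its chromosome. The nearest tested gene, Ccdc186, had a log2 fold change of 0.21 (edgeR, adjusted p = 0.0504). Around Adora2b 13 of 26 rose and 1 fell (median 0.22, against 0.01 over the chromosome), and its nearest tested gene, Zswim7, rose by 0.60. Around Ptgir 18 of 31 rose and 6 fell (median 0.33, against 0.06 over the chromosome), and its nearest tested gene, Calm3, a calmodulin, had a log2 fold change of -0.10 (edgeR, adjusted p = 0.190). Around Ptger4 4 of 7 rose and none of those 7 fell (median 0.16), while Ptger4 itself was lower. Around Adora2a 4 of 13 rose and 2 fell, around Ptger1 12 of 32 rose and 8 fell, and around Ptger2 2 of 8 rose and 1 fell.

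**Figure D4:**
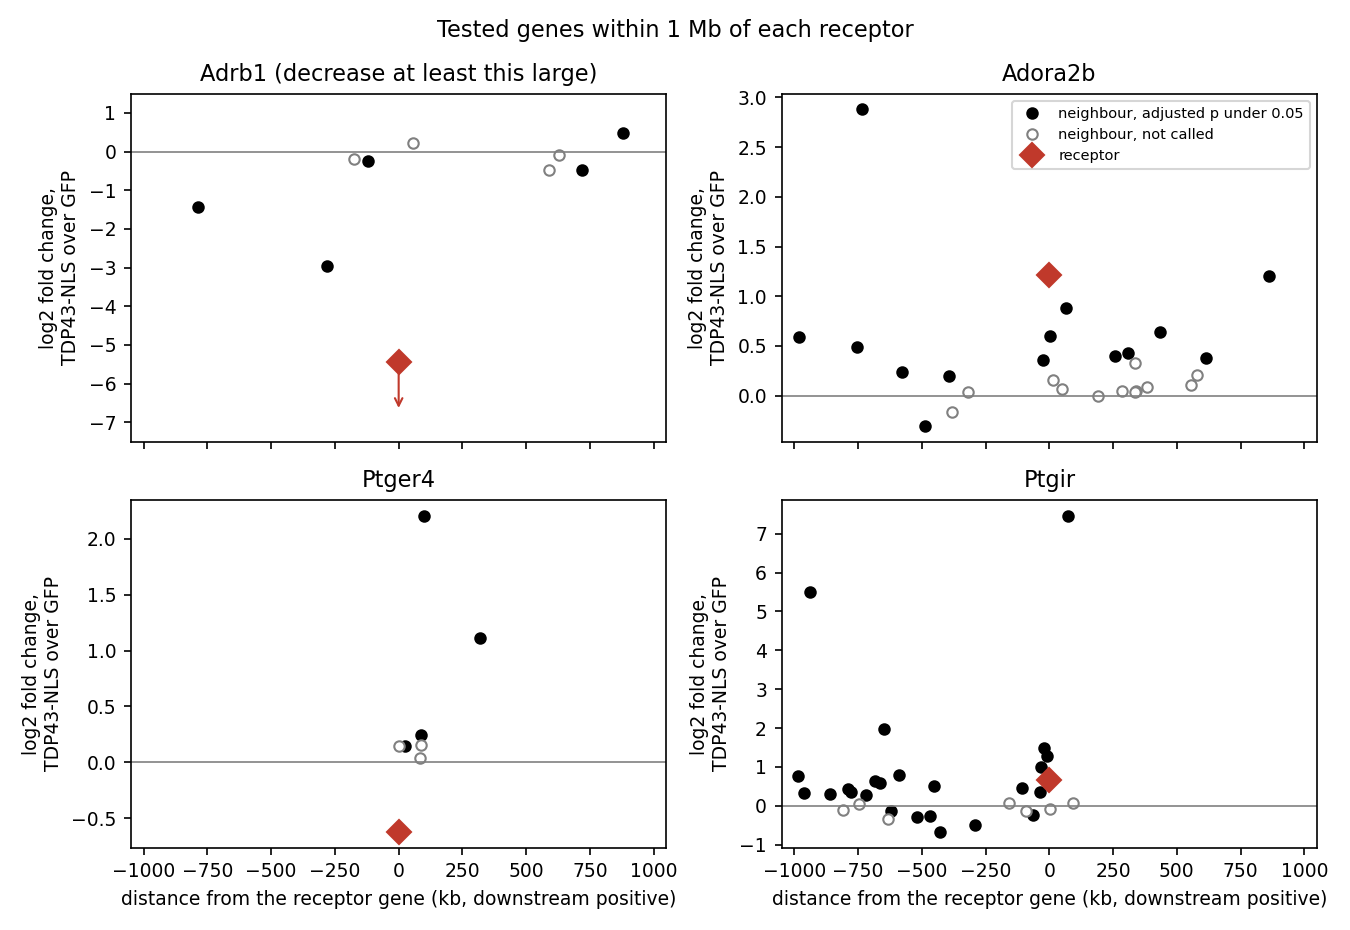
Log2 fold change, TDP43-NLS over GFP, of tested genes within 1 Mb of Adrb1, Adora2b, Ptger4 and Ptgir against their distance from the receptor in kb, with the receptor as a red diamond, called neighbours filled and others open. The Adrb1 diamond is drawn at the bound set by 3 reads, with an arrow since the decrease is at least that large, and it lies below all 9 of its neighbours.

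Genes whose values ran most like a receptor over the 6 libraries were found by the root-mean-square distance between log2 CPM values, each centred on its own mean, among 11078 tested genes with an established symbol. Near to Adrb1 was Slc9a7, a sodium-proton exchanger (distance 0.18), with no read in TDP43-NLS libraries and 117 reads in GFP libraries. Nearest to Adora2b were Hoga1, a mitochondrial aldolase (0.09), and Clec4d, a C-type lectin receptor (0.10). Nearest to Ptger4 were Nhlrc1, a ubiquitin ligase (0.03), and Tesk1, a kinase (0.03). Nearest to Ptgir were Slc11a1, a metal transporter of phagosomes (0.01), and Prkd3, a protein kinase (0.02). These distances rest on the same 6 libraries and on the difference between their groups.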

How the data were processed

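The authors deposited raw read counts per gene, as whole numbers for 55359 mouse genes, and FPKM values with positions for 25032 of them. The processing notes of the submitters name Bowtie2 2.2.3, HTSeq 0.6.0, HISAT2 2.1.0 and the build GRCm39, with no roles. Per the labels' protocols RNA was poly(A)-selected, with no step that marks strand, and how reads shared by genes were counted is not given here. FPKM recomputed from the counts differed from the deposited FPKM by a relative 5.17e-16 at most, so both are 1 measurement.

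Counts were tested with edgeR 4.0.16 in R 4.3.3: filterByExpr (10 reads, 15 in total), TMM scaling, quasi-likelihood test, two-sided, Benjamini-Hochberg over 13199 genes, threshold 0.05, group as the only term. CPM use library totals after TMM. The standard error is the log2 fold change divided by the root of F. "Rose" and "fell" mean an adjusted p under 0.05, also in sentences that give only the log2 fold change. The test was tried on simulated data. Alternatives used DESeq2 1.42.0 and limma 3.58.1 on log2(FPKM + pseudocount). Intervals and the floor of 3 reads cover counting error only. Named genes are receptors of the families, up to 4 called members of each list with the smallest adjusted p, and 2 genes most like each fitted receptor; Ptgis, Ptgs1, Entpd1, Nt5e, Creb1 and the nearest neighbours were named after their values were seen. Members and lists were chosen with earlier results of these data known. Some genes are not reported here, also where the rule would name them, and sums and ranks of receptors leave them out.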

Additional observations from a re-analysis of the deposited data

How the results depend on the processing

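Among the alternatives with values given here, none turned the direction of Adora2b, Ptgir or Ptger4, or of the ratios of summed reads of Adora2a, Ptger1 and Ptger2. Ptger1 had no clear direction to turn, with an interval of 0.704 to 2.28. Adrb1 had no read in any TDP43-NLS library, so its direction could not turn under any of them. Leaving out each library in turn gave log2 fold changes of 1.11 to 1.3 for Adora2b, 0.66 to 0.70 for Ptgir and -0.66 to -0.60 for Ptger4, log2 bounds of -5.55 to -4.80 for Adrb1 (fewer libraries raise the floor), and log2 ratios of summed reads of 3.08 to 3.88 for Adora2a, 0.07 to 0.53 for Ptger1 and 2.57 to 3.63 for Ptger2. Without GFP replicate 1 Adora2a had no GFP read and gave no ratio. On log2(FPKM + 1), with or without a filter, the values shrank to 0.83 for Adora2b, 0.61 for Ptgir and -0.43 for Ptger4, and Ptgir gave 0.63 on log2(FPKM + 0.1). Values from DESeq2, FPKM or the block are not given here for Adrb1 and the 3 receptors with few reads. Same-numbered libraries did not deviate together across all tested genes (r = -0.0081, -0.0017 and -0.0112). A correlation over all genes can miss a shared batch that moved few of them, and the labels do not say if same-numbered libraries were handled together. The replicate block gave 1.21, 0.67 and -0.63 for Adora2b, Ptgir and Ptger4, with 3848 genes higher and 3679 lower.

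All tested genes gave 3865 higher and 3723 lower, 3512 to 4210 and 3188 to 4041 with a library left out. Against a log2 fold change of 0.5 this fell to 1221 and 744, and called genes came to 0 of the other receptors, 2 alpha subunits, 0 cyclases, 5 effectors, 2 phosphodiesterases, 4 kinases, arrestins and RGS proteins, 5 prostanoid genes, 0 catecholamine genes and 7 responsive genes. Leaving out a library gave 1 to 2 of the other receptors and 1 to 2 cyclases. Cyclases called were 1 with DESeq2 and 1 with either filtered FPKM scale. With 250 bases only, windows holding TGACGTCA, TGACG and the loose NF-kB form were 1.55%, 17.8% and 45.8%. Depth limits Adora2a, Ptger1 and Ptger2, with at most 12 reads in any library.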

Other observations

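Rhodopsin-like receptors as a class can be set beside these receptors through the deposited Pfam annotation. Of 197 genes with a read that carry the domain 7tm_1, 63 were tested, of which 27 rose and 17 fell in TDP43-NLS libraries, or 69.8% of them, against 57.5% of all 13199 tested genes (29.3% higher and 28.2% lower). Their median log2 fold change was 0.08. The tested genes of this class include Adrb1, Adora2b and Ptgir, which the same contrast chose. Nothing is read from the difference in shares for that reason. The domain is given for 5 of the 7 receptors. By mean FPKM among the 197, Ptgir ranked 5 in TDP43-NLS libraries and 3 in GFP libraries, Adora2b ranked 18 in TDP43-NLS libraries and 29 in GFP libraries, and Adrb1 ranked 41 in GFP libraries. For Ptger4 the annotation gives HSP90 in its place, although its descriptions name a prostaglandin E receptor. For Ptger1 it gives a protein kinase domain.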
